A study of Mus musculus with 2 samples.

Results

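The erythroid microRNA genes Mir451a, Mir144 and Mir486 were followed in small RNA libraries of mouse embryonic lung. They were chosen by name, as the genes that the GENCODE annotation of mm10 calls so, and make up 3 of the 1973 microRNA genes in the deposited count tables. The series holds 1 group, lung of healthy B6NCrl embryos at embryonic day 15.5, in 2 biological replicates. Replicate 1 pooled the lungs of 78 embryos and replicate 2 those of 62 embryos, each of mixed sex, and both carry the same donor identifier. The replicates therefore differ by pool and may differ in dissection and library preparation, and no genotype or treatment was compared. Whole lung holds many cell types and blood, so the number of cells of a type and the amount of RNA per cell cannot be told apart.

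Mir144 and Mir451a are neighbours that are made from 1 primary transcript, which the erythroid transcription factor GATA1 switches on, and they are known for high levels in maturing red cells. miR-451a is unusual in that Dicer does not cut its hairpin; the Argonaute protein AGO2 does, and in mouse red cell precursors miR-451a restrains the 14-3-3 protein gene Ywhaz. Mir486 lies within Ank1, the gene of the red cell membrane protein ankyrin, and is known from striated muscle as well as from red cells.

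The mature products of the chromosome 11 pair, from RefSeq on GRCm38.p6, are shown because the tables count whole genes and do not separate these products. Capitals mark the seed, bases 2 to 8 from the 5′ end, which does most of the target pairing. miR-101a-3p is added because it shares bases 2 to 7 with miR-144-3p.
miR-451a: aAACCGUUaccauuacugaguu
miR-144-3p: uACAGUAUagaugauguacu
miR-144-5p: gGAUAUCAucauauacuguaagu
miR-451b: uGGGAGCAgcaagagaaccgu
miR-101a-3p: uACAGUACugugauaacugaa
Of the 3 members and their 2 antisense partners, 3 genes matched the RefSeq sequence table, which held 1738 mature sequences. The seeds of miR-451a, miR-144-3p, miR-144-5p and miR-451b were each carried by 0 other mature sequences of that table. Mir486 and its antisense partner Mir3107 are named without sequence.

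The hairpins show how differently the neighbours carry their products, which stand in capitals.
Mir451a: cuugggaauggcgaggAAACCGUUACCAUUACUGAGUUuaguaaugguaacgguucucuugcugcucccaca
Mir144: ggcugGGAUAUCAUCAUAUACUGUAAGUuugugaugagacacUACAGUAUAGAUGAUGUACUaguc
Mir451a, on the plus strand at chr11:78073170-78073241 (ENSMUSG00000070065.1), spans 72 bases. Its product runs over bases 17 to 38 of the hairpin, and in the structure predicted by RNAfold 17 of its 22 bases were paired and 4 lay in the loop. Mir144 (ENSMUSG00000065401.1), at chr11:78073005-78073070 on the same strand, spans 66 bases and has a product on each arm, at bases 6 to 28 and at bases 43 to 62, with 0 product bases in the predicted loop. The folding energy was predicted at -43.3 kcal/mol for Mir451a and at -28.6 kcal/mol for Mir144. The precursors are 99 bp apart and lie in no annotated host gene on their strand. Mir451b occupies the same bases as Mir451a on the minus strand, and Eral1, also on the minus strand, ends 134 bp beyond Mir451a. Mir486 (ENSMUSG00000070084.3) spans 128 bases at chr8:23142555-23142682 on the plus strand, in an intron of Ank1, with Mir3107 opposite it at chr8:23142573-23142662.

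Depth set what could be seen. Reads counted on the annotated strand of a gene were 5354530 in replicate 1 and 6489390 in replicate 2, and levels are given as CPM, counts per 1000000 of these. A single count was worth 0.187 CPM in replicate 1 and 0.154 CPM in replicate 2. The limit that a count of 0 allows, 3 counts, was 0.560 CPM and 0.462 CPM. Markers of lung compartments were present, with summed levels of 31937 CPM in replicate 1 and 31476 CPM in replicate 2 for the 5 genes of the miR-200 family, of epithelium, all of them detected.

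Mir451a was the most abundant member. It had 445 CPM in replicate 1 and 585 CPM in replicate 2, from 2385 and 3795 counts, which gave 515 ± 98.6 CPM (SD, n = 2) and rank 117 of the 1973 genes. Mir144 had 238 CPM in replicate 1 and 248 CPM in replicate 2, from 1277 and 1608 counts, which gave 243 ± 6.58 CPM (SD, n = 2) and rank 150. Mir486 had 21.7 CPM in replicate 1 and 22.5 CPM in replicate 2, from 116 and 146 counts, which gave 22.1 ± 0.590 CPM (SD, n = 2) and rank 252. The 2 values of each gene did not overlap those of another, and the order Mir451a, Mir144, Mir486 held in each library. All 3 passed 10 counts in both libraries, as did 357 genes or 18.1% of the table, and the members stood far above the limit of 3 counts.

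**Figure D1:**
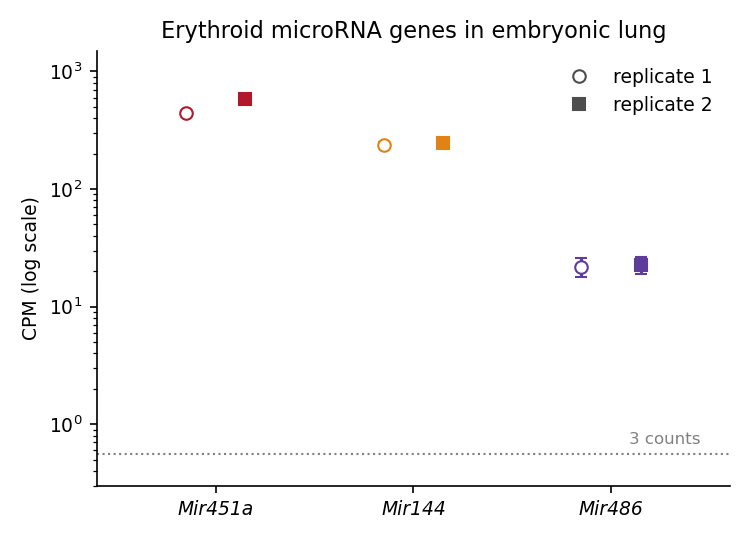
CPM of Mir451a, Mir144 and Mir486 (log scale) in replicate 1 (open circles) and replicate 2 (filled squares). Bars are 95% exact binomial intervals, which cover counting error only and are hidden by most symbols, and the dotted line marks 3 counts in replicate 1. The order of the genes is the same in each library, and Mir486 at 21.7 and 22.5 CPM has the widest intervals.

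Together the members held 0.0706% of the counts of replicate 1 and 0.0855% of those of replicate 2. Mir451a supplied 63.1% and 68.4% of that sum, Mir144 33.8% and 29.0%, and Mir486 3.07% and 2.63%, in replicates 1 and 2. The summed level of the erythroid genes, as counted, is thus mainly that of the chromosome 11 pair. Reads mapped to several places are not in this sum, and the part of Mir486 is uncertain for that reason, as given below.

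Among detected genes, whose median was 123 CPM, Mir451a and Mir144 lay in the upper part and Mir486 in the lower part. Mir451a could not be separated from the genes next to it in rank: Mir320 (539 ± 12.0 CPM), Mir208b (524 ± 361 CPM), Mir421 (502 ± 44.6 CPM) and Mir339 (488 ± 13.9 CPM) were each nearer to it than its own SD (SD, n = 2). Mir144 was within its neighbours' spread for Mir485 (246 ± 25.1 CPM), Mir376c (241 ± 3.20 CPM) and Mir146 (239 ± 19.2 CPM), while Mir350 (258 ± 7.55 CPM) exceeded it by 2.02 times the larger SD. Mir486 was within the spread of Mir34b, Mir702, Mir466n and Mir1955, which ranged between 20.9 and 24.3 CPM.

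**Figure D2:**
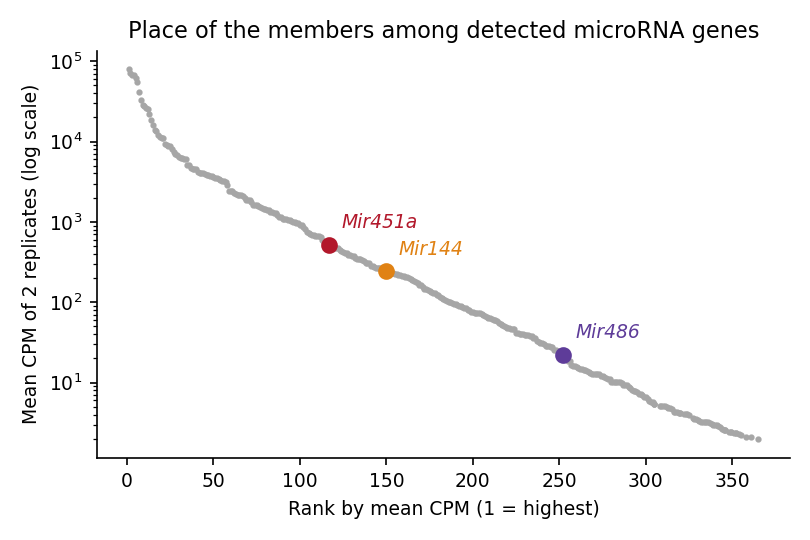
Mean CPM of the 2 replicates (log scale) against rank for the 357 detected genes (grey), with the erythroid members in colour. Mir451a stands at rank 117, Mir144 at rank 150 and Mir486 at rank 252.

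Likeness of level was measured as the distance between log2(CPM + 1) values over the 2 libraries, a description over only 2 samples. Mir421 was nearest to Mir451a (distance 0.15), followed by Mir339 (0.25) and Mir300 (0.26). Mir376c was nearest to Mir144 (0.03), followed by Mir27a (0.12) and Mir350 (0.15). Mir702 was nearest to Mir486 (0.04), followed by Mir1955 (0.13) and Mir466n (0.28). Neither of the neighbours Mir144 and Mir451a was among the genes nearest to the other, which follows from their difference in level and says nothing about pattern.

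The members differed in how far they moved between the pools. Mir451a was 1.31-fold higher in replicate 2 than in replicate 1 (95% exact binomial interval 1.25 to 1.38, log2 ratio 0.39), a difference beyond counting error. Mir144 differed by 1.04-fold (0.965 to 1.12, log2 ratio 0.06) and Mir486 by 1.04-fold (0.808 to 1.34, log2 ratio 0.05), and the interval of each included 1. Of the detected genes 19.6% had an interval above 1 and 25.2% an interval below 1, so 1 of 3 members above 1 is no result about the members. With edgeR's TMM scaling these shares were 27.2% and 19.9%, and Mir451a was still the member whose interval lay above 1. The median detected gene differed by 1.10-fold, and 57 of 357 differed by more than Mir451a. Among the 116 genes more abundant than Mir451a, 1 differed by more, the heart muscle microRNA gene Mir208b, a count made after the values were seen. That cut leaves out genes ranked not far below Mir451a that also differed by more. Examples are Mir208a (rank 126, log2 ratio -1.17) and Mir122 (rank 131, log2 ratio -0.76).

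**Figure D3:**
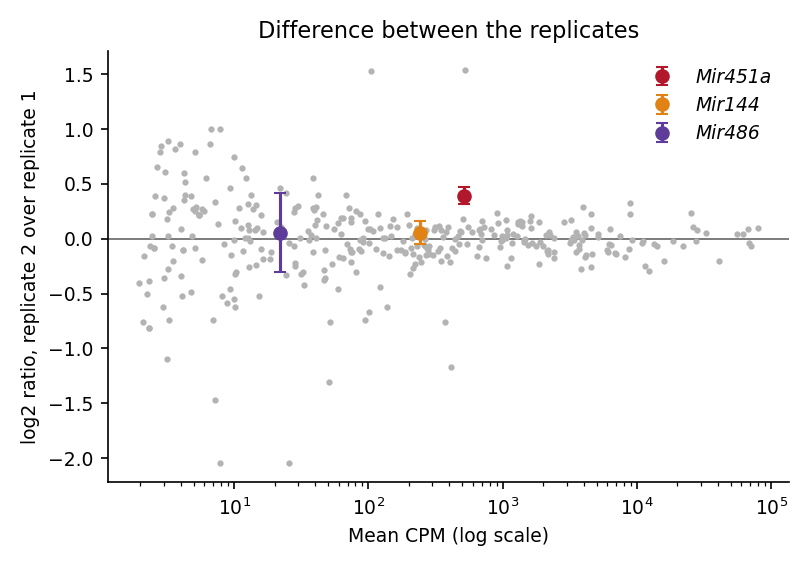
Log2 ratio of replicate 2 over replicate 1 against mean CPM (log scale) for the 357 detected genes (grey) and the 3 members (colour, with 95% exact binomial intervals). Mir451a lies at 0.39, clear of most genes of its level, while Mir144 at 0.06 and Mir486 at 0.05 lie near 0.

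The ratio of Mir451a to Mir144, which are cut from 1 transcript, was 1.87 in replicate 1 (95% exact binomial interval 1.74 to 2.00) and 2.36 in replicate 2 (2.23 to 2.50). The mean log2 ratio was 1.07 ± 0.24 (SD, n = 2). The intervals of the libraries did not overlap, and the ratio was 1.26-fold larger in replicate 2 (exact conditional interval of the odds ratio 1.15 to 1.38), a difference beyond counting error between these libraries. Mir451a exceeded Mir486 by 20.6-fold in replicate 1 and 26.0-fold in replicate 2 (log2 4.53 ± 0.24, SD, n = 2). Mir144 exceeded Mir486 by 11.0-fold in each library (log2 3.46 in both), and the exact conditional interval of the change between libraries was 0.768 to 1.30. Exact 2-sided permutation tests of the 3 pairs gave p = 0.333 each, the smallest that 2 values against 2 allow, and p = 0.333 after Benjamini-Hochberg adjustment over the 6 comparisons made between genes or lists. A microRNA read spans most of its product, so levels were not divided by precursor length, and how well each sequence was cloned was not measured.

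Reads on the opposite strand set Mir486 apart from the pair. There were 12 opposite-strand counts at Mir486 in replicate 1, or 9.38% of its reads (95% exact binomial interval 4.94 to 15.8%), and 21 in replicate 2, or 12.6% (7.96 to 18.6%). Counts above the limit of 3 in both libraries occurred on the opposite strand of 17 genes, or 0.862% of the table, and of 7 detected genes, or 1.96% of those. At Mir451a there were 0 opposite-strand counts, which allows a share of up to 0.126% in replicate 1 and 0.0791% in replicate 2, and at Mir144 also 0, which allows up to 0.235% and 0.187%. Mir3107 and Mir451b were not analysed here as genes of their own, and reads from them would fall in the opposite-strand counts of Mir486 and Mir451a.

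The sequences of the members bear on how these counts were made. Each precursor was compared with its own opposite strand, since a read from a stretch that reads alike on both strands maps to both. The longest such stretch was 22 nt in Mir486, 16 nt in Mir451a and 9 nt in Mir144. None of the 3 shared a 20 nt window with a precursor elsewhere (0 of 109 windows in Mir486, 0 of 53 in Mir451a and 0 of 47 in Mir144). The tables give reads mapped to several places on a line of their own, 31.4% of reads in replicate 1 and 30.6% in replicate 2. A read within the 22 nt stretch of Mir486 would belong on that line, so the level of Mir486 and its ratios to Mir451a and Mir144 are uncertain, and its part in that line was not tested.

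Of the other mature sequences in the RefSeq table, the product of Mir101a alone had bases 2 to 7 of miR-144-3p. Mir101a had 64.2 CPM in replicate 1 and 78.0 CPM in replicate 2 (71.1 ± 9.71 CPM, SD, n = 2), 0.292 times the level of Mir144.

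The members were set beside microRNAs of other blood cells, of the vessel wall and of striated muscle within each library. The erythroid sum was 706 CPM in replicate 1 and 855 CPM in replicate 2, against 1104 and 993 CPM for the leukocyte genes, 0.639 and 0.861 times as much (mean log2 ratio -0.43 ± 0.30, SD, n = 2). Of the 5 leukocyte genes in the table, Mir223, of myeloid cells, stood at 667 ± 26.1 CPM, Mir146 at 239 ± 19.2 CPM, Mir155 at 102 ± 32.9 CPM and Mir150, of lymphocytes, at 40.7 ± 0.219 CPM, while Mir142b was at 0 on its annotated strand (SD, n = 2). Mir142, also on the list, was not in the table. There were 7944 and 6422 reads opposite Mir142b in replicates 1 and 2. Counted without regard to strand, which adds these reads, the erythroid sum was 0.274 and 0.433 times the leukocyte sum (mean log2 ratio -1.54). On annotated-strand counts without Mir146, which shares sequence with another precursor, the erythroid sum was 0.830 and 1.11 times the leukocyte sum. The direction thus turned in replicate 2, but leaving a gene out can only lower the leukocyte sum. That turn therefore cannot decide which list was the more abundant. Annotated-strand counts lack reads mapped to several places and those opposite Mir142b, and did not settle this. With the reads opposite Mir142b the leukocyte sum was the higher in each library. Leaving Mir146 out of those either-strand counts was not tried. Erythroid genes stood at 0.0102 and 0.0128 times the endothelial level of Mir126a, which had 68906 CPM in replicate 1 and 67001 CPM in replicate 2.

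**Figure D4:**
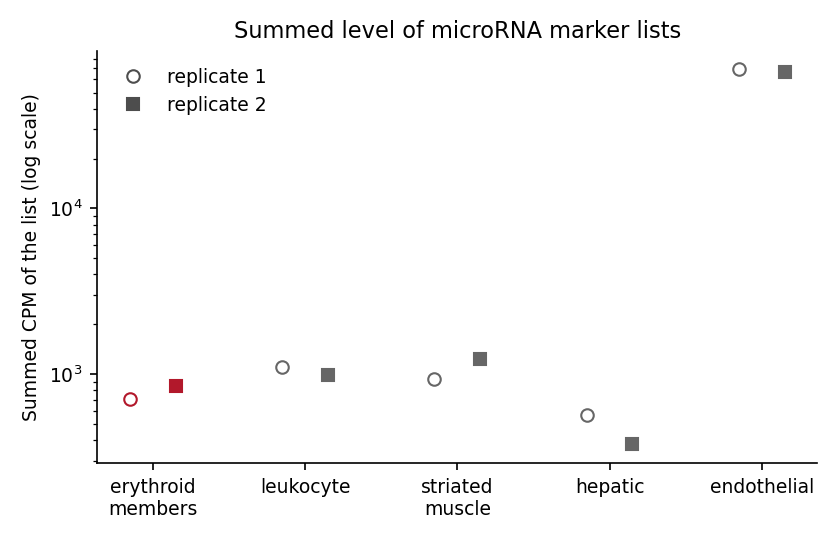
Summed CPM (log scale) of the erythroid members (red) and of leukocyte, striated muscle, hepatic and endothelial marker genes (grey) in replicate 1 (open circles) and replicate 2 (filled squares). The erythroid sum, 706 and 855 CPM, lies near the leukocyte and muscle sums as counted on the annotated strand, and far below the endothelial level. Reads opposite Mir142b and reads mapped to several places are not in these sums.

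Striated muscle genes are of interest because Mir486 is also made in muscle. Against their counted sum, the erythroid members stood at 0.758 times it in replicate 1 and 0.689 times it in replicate 2 (mean log2 ratio -0.47 ± 0.10, SD, n = 2). That sum may be too low, because 5 of the 9 muscle genes in the table share sequence with other precursors. Reads that map to several places are not in it. Of the muscle genes 9 were in the table, and 4 of these were detected, beside 18.1% of all genes. Another 3 were at 0 (Mir1a-1, Mir133a-1 and Mir133a-2, which share sequence with other precursors). The sum of the 9 was 930 CPM in replicate 1 and 1240 CPM in replicate 2. The heart gene Mir208b had 269 CPM in replicate 1 and 780 CPM in replicate 2, and Mir208a had 573 CPM in replicate 1 and 255 CPM in replicate 2. Mir206, of skeletal muscle, had 54.2 and 156 CPM, and Mir499 31.6 and 46.4 CPM. The 4 detected muscle genes thus had larger ratios between the pools than Mir486, and in both directions. Hepatic genes, which matter because the embryonic liver makes red cells, summed to 564 CPM in replicate 1 and 377 CPM in replicate 2, led by Mir122 with 470 and 278 CPM. Of the other detected hepatic genes, Mir192 had 56.2 CPM in replicate 1 and 62.1 CPM in replicate 2 and Mir194-2 had 34.7 and 36.4 CPM, and the interval of each ratio included 1. The hepatic sum, through Mir122, was 0.668 times as high in replicate 2 as in replicate 1, against 1.21 times for the erythroid sum and 1.33 times for the muscle sum, and the part of muscle or liver tissue in the members' levels was not tested.

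Other microRNAs known from red cells are mostly made in many tissues. Of 20 such genes 19 were in the table and all 19 were detected, beside 18.1% of all genes. Reads mapped to several places are not counted here, and sharing of sequence was not examined for this list. As counted, the 19 were led by Mir93 (8802 ± 1388 CPM), Mir106b (6313 ± 275 CPM), Mir182 (4106 ± 63.2 CPM) and Mir15a (4053 ± 96.3 CPM, SD, n = 2). Their median log2 ratio of replicate 2 over replicate 1 was -0.01, beside 0.01 over all detected genes, and its sign turned with the scaling. Of the 19, 7 or 36.8% had an interval above 1, beside 19.6% of detected genes, and 7 or 36.8% an interval below 1, beside 25.2%. The intervals narrow as counts rise, and the leading genes stand far above the detected median of 123 CPM. These shares and those of the next list were not matched for abundance. Of 11 genes known to fall as red cells mature, 10 were in the table and detected, beside 18.1% of all genes. Mir214 (5157 ± 40.3 CPM), Mir223 (667 ± 26.1 CPM), Mir221 (276 ± 14.1 CPM) and Mir146 were the most abundant of them (SD, n = 2). Their median log2 ratio was -0.11, with 0 intervals above 1, beside 19.6% of detected genes, and 6 below 1, beside 25.2%. With TMM or DESeq2 scaling 2 intervals lay above 1 and 3 below 1, those of Mir221, Mir222 and Mir223 then including 1. Of the 10 genes, 4 are also leukocyte genes.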

How the data were processed

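The authors deposited raw read counts per microRNA gene for each library, made on mm10 with annotation M4 per the readme files; no aligner, counter or parameter is named in these sources. Each table held 1973 genes, 3 count columns (either strand, annotated strand, opposite strand, as the totals show) and 4 summary lines, which were left out of library sizes. CPM was computed from the annotated-strand counts. GENCODE M21 on GRCm38 (mm10) supplied gene positions, with 1894 identifiers matched; sequences came from RefSeq on GRCm38.p6.

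Genes with 10 or more counts in each library were called detected. Intervals were 95% exact (Clopper-Pearson) binomial, cover counting error only and were tested on simulated data. Means and SDs are over 2 replicates, so the SDs measure the spread between these pools. The p-values come from exchanging values between 2 genes or lists read in the same libraries and do not measure that spread. Older symbols were matched through RefSeq synonyms (Mir146 for Mir146a). Precursors were compared over 20 nt windows on both strands and folded with RNAfold 2.7.2.

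The members and lists were chosen with earlier results of these data known. The genes named were the members, genes within 10000 bp, the 3 nearest in level over the libraries and the 2 ranked on each side. From each list the 4 highest and the zero members were named. Exceptions are marked or stand in the closing section. Alternatives were either-strand counts, edgeR 4.0.16 TMM factors, DESeq2 1.42.0 size factors, all reads as the total, the 10 most abundant genes left out of the total, other count minimums, single replicates, Mir486 left out and sequence-sharing list genes left out. Analyses used Python 3.11.15, scipy 1.17.1 and R 4.3.3.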

Additional observations from a re-analysis of the deposited data

Results flagged for a closer look

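The opposite-strand column, which the CPM values do not use, held 12 reads at Mir486 in replicate 1 and 21 in replicate 2, above the 3 counts that a count of 0 allows. It drew attention as a signal outside the main measurement, at the site where Mir3107 is annotated on the other strand. Of the 357 detected genes, 7 or 1.96% had such reads above that limit in both libraries.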

How the results depend on the processing

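The direction of each member between replicates was the same under each scaling and denominator tried, as was whether a member's replicate interval included 1. Ratios formed within a library do not depend on the total, so scaling could not change them. With either-strand counts the mean ratios between members kept their direction. So did those of the erythroid over the leukocyte, endothelial and striated muscle lists, also with Mir486 or sequence-sharing list genes left out. Calls near 1 in the other lists were not stable to scaling, which was examined after the data were seen. The median log2 ratio of the other red cell microRNAs was 0.017 with TMM factors, 0.0071 with DESeq2 factors, 0.022 with all reads as the total and 0.0052 without the 10 most abundant genes in it. The ratio of erythroid to leukocyte genes turned in replicate 2 when Mir146 was left out of the annotated-strand counts, a step that can only raise this ratio. The levels depended on the total used. Per 1000000 of all reads, Mir451a averaged 245, Mir144 115 and Mir486 10.5; with the 10 most abundant genes left out of the total they averaged 1097, 518 and 47.0 CPM. Counted without regard to strand, Mir144 averaged 236 CPM and Mir486 24.1 CPM, and Mir486 averaged 24.8 CPM when the reads of its antisense partner were added. TMM and DESeq2 factors moved each mean by less than its SD. A minimum of 1 count raised the share of all genes detected to 29.9%, and all 3 members passed minimums of 1 and of 100 counts. Single replicates gave a log2 ratio of Mir451a over Mir144 between 0.90 and 1.24, of the erythroid over the leukocyte genes between -0.65 and -0.22 and over the muscle genes between -0.54 and -0.40. No paired analysis was possible because the series holds 1 group, so no groups share replicate numbers; ratios between genes were formed within each library, and the permutation tests did not use that pairing. The permutation tests could not pass a threshold of 0.05. The 116 and 146 counts of Mir486 left its ratio between pools anywhere between 0.808 and 1.34.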

Other observations

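Mir486 is among 77 of 1894 precursors whose own opposite strand matches them over 20 nt or more. Of these 77, 3 or 3.90% were detected, against 354 of 1817 other precursors, or 19.5%. Among precursors that share no 20 nt window with a precursor elsewhere, the shares were 3 of 11 and 275 of 954 (28.8%). The other two detected genes, named after their values were seen, were Mir374b, with 3451 and 4408 counts on its annotated strand, and Mir299b, with 21 and 27 counts there and 10442 and 14027 on the opposite strand.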
